A study of Mus musculus with 2 samples.

Results

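Committed oligodendrocyte precursors are cells of the oligodendrocyte lineage that lie between the dividing precursor and the newly formed oligodendrocyte. Here they were chosen by their own transcripts. A cell was a member when it held at least 4 unique molecular identifiers (UMIs, each standing for 1 captured transcript) of *Gpr17*, *Bmp4* and *Neu4* together, at most 1 of *Enpp6*, at most 1 of *Mog* and *Opalin* together and at most 1 of *Pdgfra*. Members also held at most 2 UMIs of the microglial and endothelial genes *C1qa*, *C1qb*, *Cldn5* and *Flt1* together, and 0 of the neuronal transporters *Slc32a1* and *Slc17a6*. The rule found 901 cells among 12395 that passed the quality filters. Of these, 167 were among 3345 cells of the untreated library (4.99%, 95% exact binomial interval 4.28 to 5.79%) and 734 among 9050 cells of the 4OH-tamoxifen library (8.11%, 7.56 to 8.69%). The limits were UMI counts not scaled to depth, and the libraries differed in depth. The shares thus depend on depth, and how far they do was not tested.

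The cells came from the ventral parafacial region of the brainstem of C57BL6/J mice aged 10 days, dissociated and captured on the 10X Chromium platform with v2 chemistry. Each library pooled 8 mice, 4 of each sex. Mice of the first library are labelled WT with no treatment, and mice of the second were injected with 4OH-tamoxifen at 0.2 mg daily for 3 days. No transgene or Cre is named for either group. There was 1 library per condition, and condition and batch were the same split, so the effect of the injection and that of the batch cannot be told apart. Cells are not replicates, so no test was made between libraries or between cell classes. All intervals below are 95% exact intervals that cover counting error only.

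As background, precursors that carry the PDGF receptor divide and spread through the brain. A part of them leaves the cell cycle, loses the precursor genes and passes through a short stage that is marked by GPR17, an orphan G protein coupled receptor that holds back further maturation. The next stage extends many processes, turns on *Enpp6* and begins to make the lipids and proteins of myelin, the insulating sheath around axons.

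The libraries held 3767 and 10241 barcodes with 18496942 and 34704167 UMIs (untreated and 4OH-tamoxifen, in this order throughout). A total of 40 barcodes occurred in both libraries, none of them a member in both, and 7 member barcodes were found among all barcodes of the other library. Members had a median of 3767 and 2233 UMIs and 1925 and 1268 genes per cell, with a median of 7.38% and 7.49% mitochondrial UMIs. No doublets were removed. Scrublet marked 6 and 544 barcodes at its automatic threshold, which was 0.159% of the untreated barcodes, and 0 and 38 members were among them. When the barcodes with the highest Scrublet scores were taken up to the expected rate, they numbered 114 and 839 and included 5 and 53 members. Astrocyte transcripts were present in some members, 13 and 50 of which held 4 or more UMIs of *Aqp4* and *Gja1*.

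Members were set beside the stages before and after them. Precursors were cells with at least 2 *Pdgfra* UMIs and at most 1 UMI of *Gpr17*, *Bmp4* and *Neu4* (155 and 494 cells, median 3023 and 1862 UMIs). Newly formed oligodendrocytes were cells with at least 2 *Enpp6* UMIs and at most 1 of *Pdgfra* (199 and 563 cells, median 5544 and 3716 UMIs). Both classes also met the members' limits on *Mog* and *Opalin* and on the microglial, endothelial and neuronal genes. Precursors also held at most 1 UMI of *Enpp6* and at most 1 of *Col1a1* and *Col1a2* together. The rule for newly formed cells set no limit on *Gpr17*, *Bmp4* or *Neu4*. Newly formed cells with at least 4 UMIs of these genes were thus parted from the members by the *Enpp6* count only. Among members, 55 and 248 held 1 *Enpp6* UMI and 36 and 67 held 1 *Pdgfra* UMI. Within the 4 lineage classes, which also include myelinating oligodendrocytes (209 and 868 cells), members made up 22.9% and 27.6% of cells.

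The genes of the rule describe how the members were composed, and since the rule chose members for high and precursors for low counts of them, their differences between these classes are not a result. *Gpr17* stood at 2249 and 2625 CPM (counts per 1000000 UMIs) in members, against 122 and 170 CPM in precursors, 1838 and 1345 CPM in newly formed oligodendrocytes and 169 and 186 CPM in myelinating cells. *Bmp4*, which encodes a secreted ligand of the BMP family, stood at 550 (494 to 610) and 674 (636 to 713) CPM in members. In precursors it was at 0 (0 to 7.25) and 5.96 CPM, where the rule for precursors held it low, and in newly formed oligodendrocytes at 911 (857 to 967) and 533 CPM. For *Bmp4*, newly formed cells were higher in the untreated library and members in the other. This is a description only, since the rule chose members, but not newly formed cells, by this gene. *Neu4*, a sialidase that trims sialic acid from glycoproteins and gangliosides, was at 444 and 324 CPM in members and at 333 and 203 CPM in newly formed cells. Microglia, which should lack these genes, gave the level of free RNA, 65.1 and 97.4 CPM for *Gpr17*, 25.0 and 49.3 CPM for *Bmp4* and 18.1 and 10.3 CPM for *Neu4*.

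**Figure D1:**
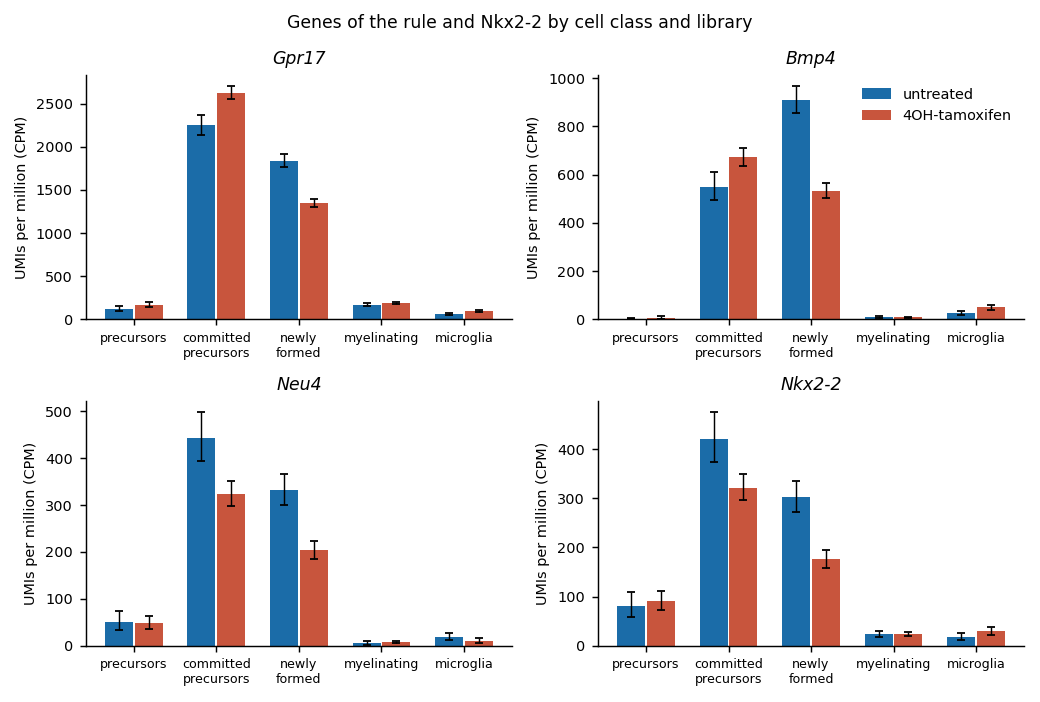
Levels of the genes of the rule and of *Nkx2-2*, which the rule did not use, in CPM (counts per 1000000 UMIs, vertical axis from 0) for 5 cell classes. Bars are UMIs summed over the cells of a class in 1 library and error bars are 95% exact Poisson intervals. The rule set *Gpr17*, *Bmp4* and *Neu4* high in members and low in precursors, and *Bmp4* reached 911 CPM in newly formed cells of the untreated library against 550 CPM in members.

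Individual members differed in which of these genes they held. *Gpr17* was detected in 98.2% and 100% of members, *Bmp4* in 58.7% and 65.1% and *Neu4* in 77.2% and 54.5%. All 3 genes were found together in 43.1% and 36.8% of members. *Gpr17* with *Neu4* but without *Bmp4* made up 32.9% and 17.7%, *Gpr17* with *Bmp4* but without *Neu4* 14.4% and 28.3%, and *Gpr17* alone 7.78% and 17.2%. *Bmp4* was thus the least often detected of the 3 genes in the untreated library and *Neu4* in the 4OH-tamoxifen library, and the libraries also differed in depth. The summed count had a median of 10 and 8 UMIs and a maximum of 38 and 33.

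At the threshold, 19 and 95 members held exactly 4 UMIs, and 32 and 142 cells that met the other limits were just outside with 3. Values just inside lay nearer to those just outside than to those of members with more UMIs. The proteoglycan gene *Cspg5* was at 1302 CPM outside and 1523 CPM inside in the untreated library, and at 797 and 540 CPM in the 4OH-tamoxifen library, against 447 and 197 CPM in members with 5 or more UMIs. *Nkx2-2* was at 201 and 182 CPM in the untreated library and at 225 and 232 CPM in the other, against 447 and 334 CPM with 5 or more UMIs.

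*Nkx2-2*, a homeodomain transcription factor of the lineage and the only marker of the label that the rule did not use, was read in both libraries. It stood at 422 and 322 CPM in members, 80.6 and 90.4 CPM in precursors, 302 and 176 CPM in newly formed oligodendrocytes and 23.1 and 24.3 CPM in myelinating cells. Members were above precursors by 5.23-fold (3.76 to 7.46) and 3.56-fold (2.85 to 4.49) and above newly formed cells by 1.40-fold (1.19 to 1.64) and 1.83-fold (1.60 to 2.08). At least 1 *Nkx2-2* UMI was found in 73.7% and 52.5% of members, against 4.53% and 6.14% of microglia, whose median depth was 4073 and 2438 UMIs. With cells thinned to 2000 UMIs and shallower cells left out, the shares in members were 51.5% and 47.8% (163 and 483 cells).

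The label was also checked on genes outside the rules. Each cell was assigned to the class with the most likely profile over 28529 genes, with the profiles taken from the other library. Of the members, 121 (72.5%, 65.0 to 79.1%) and 468 (63.8%, 60.2 to 67.2%) went to the members of the other library. A further 34 (20.4%) and 58 (7.90%) went to precursors and 8 (4.79%) and 189 (25.7%) to newly formed oligodendrocytes. Astrocytes took 3 and 13, and neurons 1 and 6. In the reverse direction, 53.8% of untreated and 14.7% of 4OH-tamoxifen newly formed cells went to the members, whereas 94.8% and 90.7% of precursors went to precursors. Members that left their own class thus went mostly to precursors in the untreated library and mostly to newly formed cells in the other. The rules leave a gap in rule UMIs between members and precursors and none between members and newly formed cells.

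The members that went to precursors had few rule UMIs, with a median of 5 and 5, and held *Bmp4* at 17.2 and 66.6 CPM and *Pdgfra* at 206 and 215 CPM. Those that went to members held *Bmp4* at 645 and 605 CPM, and those that went to newly formed cells at 1411 and 1024 CPM. Of all members, 2 and 22 lay near a boundary, within 5 log-likelihood units.

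Against precursors, a gene was called when its ratio, with 10 CPM added to both levels, was at least 2 in the same direction in both libraries. The 6922 genes compared had 20 CPM or more in the higher of the classes. Members were higher for 125 genes (1.81%) and lower for 192 genes (2.77%). The median ratio over all genes was 1.00 and 1.01. Against newly formed oligodendrocytes, 102 of 6546 genes (1.56%) were higher in members and 158 (2.41%) were lower, with a median ratio of 1.04 and 1.05 over all genes. Shares for lists of genes below are to be read beside these.

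Transcription factors were among the genes with the largest ratios to precursors. *Mycl*, a member of the MYC family, was at 368 and 279 CPM in members, 31.5 and 30.8 CPM in precursors and 355 and 215 CPM in newly formed cells, a ratio to precursors of 11.7 (7.06 to 20.8) and 9.04 (6.29 to 13.4). It was detected in 62.3% and 46.0% of members and in 9.60% and 5.99% of microglia, and in 47.9% and 40.4% of members after thinning. *Myrf*, the factor that turns on myelin genes, was at 108 and 150 CPM in members, 7.87 and 17.9 CPM in precursors and 257 and 329 CPM in newly formed cells, so that members lay between the other stages in both libraries. The ratio to precursors was 13.7 (5.12 to 51.7) and 8.36 (5.19 to 14.3).

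Other genes among the 8 with the largest ratios to precursors differed in how they stood against newly formed cells. *Plxnb3*, a plexin receptor for semaphorins, was at 75.5 and 140 CPM in members, 7.87 and 15.9 CPM in precursors and 234 and 283 CPM in newly formed cells. *Pak4*, a kinase that acts on the actin cytoskeleton, was at 197 and 200 CPM against 31.5 and 27.8 CPM in precursors and 360 and 264 CPM in newly formed cells. The uncharacterised *9530059O14Rik* was at 196 and 378 CPM against 11.8 and 8.95 CPM in precursors, 16.6-fold (7.41 to 46.0) and 42.2-fold (22.1 to 92.8). In newly formed cells it was higher than in members in both libraries, at 405 and 543 CPM. *Plekhf1*, at 57.0 and 65.1 CPM, and the adhesion molecule gene *Epcam*, at 60.1 and 120 CPM, had at most 6.96 CPM in precursors. In newly formed cells *Plekhf1* was at 80.0 and 64.2 CPM and *Epcam* at 166 and 94.8 CPM, so that *Epcam* was lower in members than in newly formed cells in the untreated library and higher in the other. Counts of *Gp1bb* are uncertain because the gene overlaps an exon of *Sept5* on the same strand. As listed, it was at 102 and 179 CPM in members, 7.87 and 9.94 CPM in precursors and 163 and 147 CPM in newly formed cells.

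The stretches before the starts of *Mycl* and *Plxnb3* are shown because both genes were among the 8 with the largest ratios to precursors and differ in what their upstream bases hold. Of these 8 genes, 7 had a RefSeq promoter entry. Bases come from RefSeq on GRCm38.p6, 5′ to 3′ on the gene's strand, cut to the longest run outside annotated exons. Capitals mark matches on either strand to the E-box letters CAGCTG and CAGATG or the SOX-like letters ACAAAG and ACAATG, which do not overlap one another here. Other forms of the E-box were not searched. Of the 7 entries, 2 held a match within 250 upstream bases. *Mycl* is at chr4:122995812-122995930 on the plus strand (119 bases, 0 matches) and *Plxnb3* at chrX:73756853-73757089 on the plus strand (237 bases, 4 matches).
Mycl: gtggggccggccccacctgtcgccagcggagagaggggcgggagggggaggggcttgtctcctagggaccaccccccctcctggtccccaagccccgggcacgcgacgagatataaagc
Plxnb3: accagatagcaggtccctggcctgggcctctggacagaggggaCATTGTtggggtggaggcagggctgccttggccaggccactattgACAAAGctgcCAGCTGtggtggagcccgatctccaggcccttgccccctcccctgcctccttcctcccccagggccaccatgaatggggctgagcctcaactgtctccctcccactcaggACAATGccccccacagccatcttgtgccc
Of 32851 promoters, 13.0% held CAGCTG, 14.4% CAGATG, 16.5% ACAAAG and 10.7% ACAATG within 250 upstream bases. Of the 138 promoters of 97 genes higher in members than in precursors, 11.6%, 7.25%, 15.9% and 10.1% did, and of the 182 promoters of 139 genes lower in members 12.1%, 14.3%, 16.5% and 3.85% did. A match describes letters only and names no binding site.

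Genes of cell division were lower in members than in precursors. All 19 genes of the division list that reached 20 CPM, of 22 listed, were lower in members in both libraries, with a median ratio of 0.244 and 0.217. The summed level of the list was 225 and 164 CPM in members, 1630 and 1622 CPM in precursors and 31.2 and 38.3 CPM in newly formed cells. *Ube2c*, which marks mitotic proteins for removal, was at 23.1 and 17.1 CPM against 230 and 144 CPM in precursors. *Mki67*, a marker of cycling cells, was at 12.3 and 13.8 CPM against 94.4 and 139 CPM. *Ccnd1*, the cyclin of the entry into the cycle, was at 58.5 and 41.4 CPM against 366 and 242 CPM, a ratio of 0.160 (0.110 to 0.228) and 0.171 (0.130 to 0.222), with 17.7 and 13.7 CPM in newly formed cells.

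Cells with 3 or more UMIs of the division list made up 6 of 167 (3.59%, 1.33 to 7.66%) and 12 of 734 members (1.63%, 0.848 to 2.84%), against 31 of 155 and 106 of 494 precursors and 0.503% and 0.178% of newly formed cells. Thinning to 2000 UMIs kept 163 and 483 members, 142 and 194 precursors and 193 and 516 newly formed cells. The shares were then 2.45% and 2.28% in members, 16.2% and 34.5% in precursors and 0% and 0% in newly formed cells. Cells under 2000 UMIs were left out here. The 194 of 494 4OH-tamoxifen precursors that were kept had a higher share than all 494 before thinning (21.5%), so the thinned shares describe the deeper cells only. Microglia, which can divide at this age, gave 5.87% and 9.68% before and 3.57% and 11.3% after thinning. Of 11 genes of DNA replication that reached the minimum, 7 were lower than in precursors and none was higher. *Lig1*, the ligase that joins newly made DNA, was at 7.70 and 8.83 CPM against 62.9 and 80.5 CPM.

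**Figure D2:**
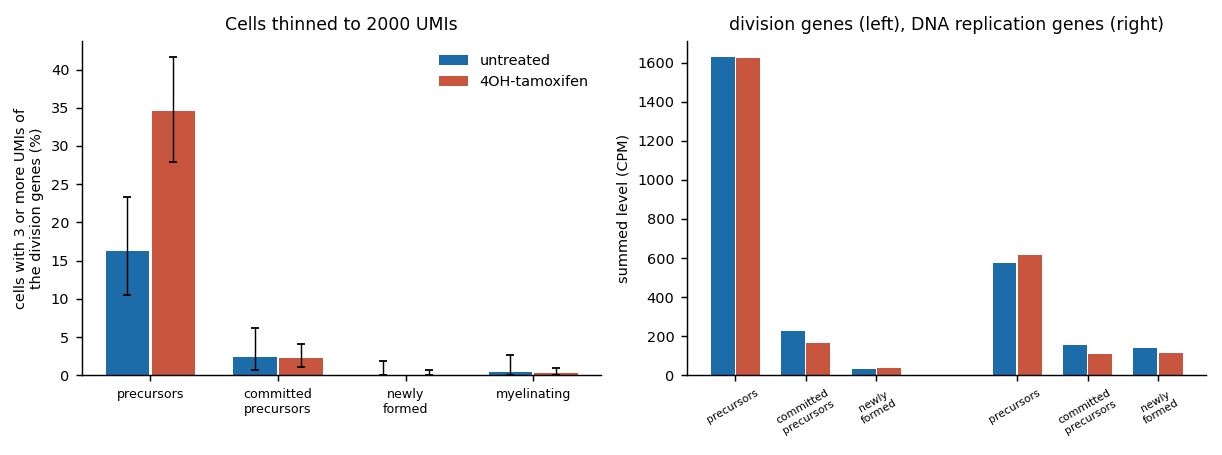
Left, share of cells with 3 or more UMIs of the division list after thinning to 2000 UMIs, with shallower cells left out (percent, with 95% exact binomial intervals). Right, summed levels of the division and DNA replication lists (CPM, no error bars). Members had 2.45% and 2.28% of such cells and 225 and 164 CPM of division transcripts, well below precursors and above newly formed cells.

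Of 10 genes that reached the minimum in the list of cell cycle exit, 5 were lower in members than in precursors and none was higher. These were the D cyclins *Ccnd1*, *Ccnd2* and *Ccnd3*, which drive entry into the cycle, the kinase inhibitor *Cdkn2c* and the growth arrest gene *Gas1*. *Cdkn1c*, an inhibitor of cyclin dependent kinases, was at 84.7 and 66.8 CPM in members, 31.5 and 29.8 CPM in precursors and 59.8 and 57.4 CPM in newly formed cells, highest in members in both libraries without reaching the call.

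Of 36 lineage transcription factors compared with precursors, 6 were higher in members and 6 lower. The higher genes were *Nkx2-2*, *Sox8*, *Zfp365*, *Zeb2*, *Myrf* and *Mycl*, and the lower genes included *Sox11*, *Hes1*, *Id2*, *Etv4* and *Etv5*. The median ratio was 0.952 and 0.826. *Zeb2*, a repressor that opposes BMP and Notch signals, was at 470 and 483 CPM in members and 148 and 122 CPM in precursors. *Etv4*, a target of growth factor signalling, was at 21.6 and 17.7 CPM against 110 and 79.5 CPM. The general factors of the lineage did not reach the call in either direction, with *Olig2* at 520 and 463 CPM against 734 and 558 CPM and *Sox10* at 414 and 383 CPM against 358 and 266 CPM. Against newly formed cells, *Sox11* was higher in members and *Tcf7l2* and *Myrf* were lower.

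*Sox8*, a relative of *Sox10*, was highest in members. It stood at 582 and 553 CPM, against 271 and 236 CPM in precursors and 364 and 310 CPM in newly formed cells. The ratios were 2.15 (1.76 to 2.63) and 2.35 (2.04 to 2.72) to precursors, and 1.60 (1.39 to 1.84) and 1.78 (1.62 to 1.97) to newly formed cells. *Sox8* UMIs were found in 82.6% and 68.5% of members, in 5.33% and 6.61% of microglia, and in 63.2% and 58.8% of thinned members.

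Of 6261 genes compared with both neighbouring stages, 1 was called higher in members than in both and 0 were called lower than both. The 1 was *Slc27a3*, a fatty acid transport protein gene named after its values were seen, at 73.9 and 49.7 CPM in members, 11.8 and 11.9 CPM in precursors and 21.9 and 12.3 CPM in newly formed cells. In contrast, 15 genes were higher than in precursors and lower than in newly formed cells, and 13 were lower than in precursors and higher than in newly formed cells. The first set held *Cnp*, *Myrf*, *Aatk*, *Elovl7* and *Ttyh2*, and the second *Cspg4*, *Cspg5*, *Bmp7*, *Grm5* and *Sox11*. These counts depend on where newly formed cells begin, since requiring at least 4 *Enpp6* UMIs of them in place of 2 took the genes higher in members than in newly formed cells from 102 to 236.

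Among genes with at least 50 CPM in members of each library, which leaves out *Slc27a3*, ranked by their smallest ratio to either neighbour, *Fsd1l*, *Sox8* and *Irs2* came first. *Fsd1l* was at 136 and 135 CPM in members, 37.4 and 35.8 CPM in precursors and 65.7 and 46.5 CPM in newly formed cells. *Irs2*, an adaptor of the insulin receptor, was at 106 and 102 CPM, against 43.3 and 44.7 CPM in precursors and 64.0 and 54.2 CPM in newly formed cells. The motor protein gene *Kif21b* was at 109 and 98.2 CPM, against 57.0 and 60.6 CPM and 55.6 and 61.1 CPM. *Omg*, which encodes the oligodendrocyte myelin glycoprotein, was at 162 and 111 CPM, against 108 and 66.6 CPM and 72.4 and 41.5 CPM. In myelinating cells *Omg* was higher than in members, at 314 and 261 CPM. *Susd5*, *E330009J07Rik*, *G0s2*, *Mif4gd*, *Amz1*, *Jmjd1c* and *Zcchc18* completed the 12.

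**Figure D3:**
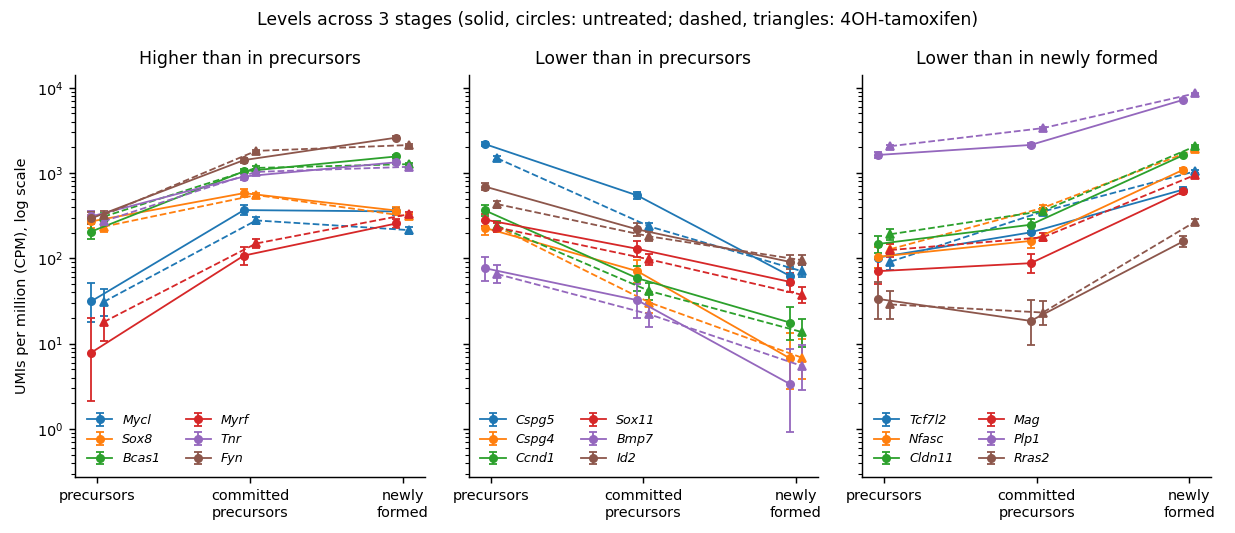
Levels of 18 genes in precursors, members and newly formed oligodendrocytes (CPM, log axis, with 95% exact Poisson intervals). Solid lines are the untreated library and dashed lines the 4OH-tamoxifen library. *Sox8* was highest in members, *Cspg5* was lower at each later stage, and *Cldn11* was at 248 and 359 CPM in members against 1621 and 2068 CPM in newly formed cells.

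Markers fixed for the neighbouring stages placed the members between them. Of 20 precursor genes, 5 were lower in members than in precursors and 1, *Tnr*, was higher, while 11 were higher than in newly formed cells and none was lower. *Cspg5* was at 547 and 237 CPM in members, 2193 and 1495 CPM in precursors and 62.3 and 70.6 CPM in newly formed cells. *Pcdh15*, a cadherin gene of precursors, was at 174 and 94.4 CPM against 313 and 255 CPM in precursors and 25.3 and 19.1 CPM in newly formed cells. *Tnr*, the matrix protein tenascin R, went the other way at 912 and 1033 CPM, against 311 and 272 CPM in precursors and 1339 and 1184 CPM in newly formed cells.

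Of 18 committed precursor genes outside the rule, 9 were higher than in precursors and none lower, with a median ratio of 2.182 and 3.115. Against newly formed cells, 0 of 19 were higher and 5 lower, with a median ratio of 0.577 and 0.701. The list summed to 8324 and 9644 CPM in members, 2686 and 2738 CPM in precursors and 15559 and 15658 CPM in newly formed cells, so these markers were together highest in the later stage. *Bcas1*, a cytosolic protein of early oligodendrocytes, was at 1049 and 1150 CPM in members, 206 and 308 CPM in precursors and 1568 and 1273 CPM in newly formed cells. *Lims2*, an adaptor at focal adhesions, was at 998 and 852 CPM, against 177 and 203 CPM and 1000 and 711 CPM. *Frmd4a*, a scaffold protein gene, was in contrast at 108 and 250 CPM in members and at 867 and 1298 CPM in newly formed cells.

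Newly formed oligodendrocyte genes were reached in part. Of 15 compared with precursors 7 were higher and none lower, and of 17 compared with newly formed cells 8 were lower and none higher. *Itpr2*, a calcium release channel, was at 313 and 558 CPM in members, 94.4 and 114 CPM in precursors and 634 and 702 CPM in newly formed cells. *Tmem2*, a cell surface hyaluronidase, was at 6.16 and 4.97 CPM in members and 143 and 393 CPM in newly formed cells. *Rras2*, a small GTPase, was at 18.5 and 23.2 CPM against 158 and 270 CPM. Both of these were thus near their precursor levels of at most 33.4 CPM.

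Of 14 myelin genes compared with precursors, *Cnp*, *Myrf* and *Fa2h* were higher in members and none was lower, and 8 of 13 were lower than in newly formed cells. *Cnp*, an enzyme of non-compact myelin, was at 1304 and 1600 CPM in members, 460 and 544 CPM in precursors and 3668 and 3698 CPM in newly formed cells. *Fa2h*, which hydroxylates the fatty acids of myelin lipids, was at 146 and 134 CPM, against 39.3 and 33.8 CPM and 237 and 222 CPM. *Cldn11*, the tight junction protein of myelin, was at 248 and 359 CPM against 1621 and 2068 CPM in newly formed cells, a ratio of 0.153 (0.129 to 0.180) and 0.173 (0.160 to 0.188). *Mag*, an adhesion protein of the inner myelin layer, was at 87.8 and 177 CPM against 610 and 954 CPM. In microglia *Mag* was at 83.2 and 104 CPM, so that its level in untreated members is that of background, while *Cldn11* was at 105 and 180.5 CPM and *Cnp* at 369 and 469 CPM. *Mbp*, a main protein of compact myelin, was at 10245 and 13842 CPM in members and 11706 and 15647 CPM in precursors. It was at 9273 and 13017 CPM in microglia, which should lack it, so its level in members is near that of free RNA.

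Of 19 enzymes of cholesterol synthesis, which supply the main lipid of myelin, none was called against precursors (median ratio 0.995 and 1.26). Against newly formed cells, 3 of 22 were lower and none higher, with a median ratio of 0.580 and 0.536. *Hmgcs1*, which acts at the start of the pathway, was at 260 and 264 CPM in members, 262 and 222 CPM in precursors and 475 and 579 CPM in newly formed cells.

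The BMP pathway was read outside *Bmp4*, which the rule used. Of 7 other ligands listed, only *Bmp7* reached 20 CPM in both libraries. It was at 32.3 and 22.1 CPM in members, 76.7 and 65.6 CPM in precursors and 3.37 and 5.47 CPM in newly formed cells, lower than in precursors and higher than in newly formed cells by the call. Neither of the 2 receptors compared was called, with *Bmpr2* at 81.6 and 86.6 CPM in members and 72.8 and 99.4 CPM in precursors and *Bmpr1a* at 44.7 and 42.5 CPM against 59.0 and 67.6 CPM. Of 6 signal and target genes, *Id2*, an inhibitor of basic helix-loop-helix factors, was lower, at 219 and 181 CPM against 696 and 433 CPM in precursors. The inhibitors *Smad7* and *Smurf1* were lower than in newly formed cells, *Smad7* at 21.6 and 15.4 CPM against 69.9 and 118 CPM and *Smurf1* at 7.70 and 17.7 CPM against 35.4 and 63.8 CPM.

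Of the Wnt response list, only *Tcf7l2*, the nuclear effector, reached the minimum. It was at 202 and 354 CPM in members, 102 and 91.4 CPM in precursors and 641 and 1051 CPM in newly formed cells, lower than in newly formed cells by the call. Of 9 Notch genes, *Notch1*, *Dll1* and *Hes1* were lower than in precursors and none was higher. *Notch1*, the receptor, was at 41.6 and 34.8 CPM against 102 and 102 CPM, and *Dll3*, a ligand that acts within the cell, was at 43.1 and 25.4 CPM against 4.21 and 2.73 CPM in newly formed cells, the 1 gene of 5 that was higher there. *Hes5*, a Notch target, was at 21.6 and 19.3 CPM against 126 and 40.8 CPM in precursors.

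In the following lists of surface receptors and channels outside the rule, the genes called against precursors were all lower. Of all genes compared, 1.81% were higher and 2.77% lower. Of 12 G protein coupled receptors compared, *Adgrg1* and *Grm5* were lower and none higher than in precursors. *Adgrg1*, a receptor that keeps precursors dividing, was at 41.6 and 43.0 CPM against 112 and 115 CPM. Of 24 receptors and channels, *Kcnd2*, a potassium channel, was lower, at 67.8 and 49.7 CPM against 153 and 157 CPM, while 5 of 20 were higher and 1 lower than in newly formed cells. Of 11 growth factor receptors, *Kit* was lower, at 3.08 and 2.21 CPM against 35.4 and 27.8 CPM, and *Ntrk3* was the 1 of 10 that was higher than in newly formed cells, at 86.2 and 61.2 CPM against 19.4 and 25.5 CPM. None of 9 genes of sialic acid and gangliosides was called. *Ncam1*, which carries polysialic acid, was at 758 and 826 CPM in members and 403 and 369 CPM in precursors.

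Members were higher than precursors for several genes of cell shape. Of 32 compared, *Fyn*, *Tns3*, *Tuba1a*, *Tmsb4x* and *Cd9* were higher than in precursors and *Stmn1* was lower. *Fyn*, a kinase that links axonal contact to process growth, was at 1420 and 1822 CPM in members, 295 and 322 CPM in precursors and 2605 and 2132 CPM in newly formed cells. *Tmsb4x*, which binds free actin, was at 7064 and 6097 CPM, against 2692 and 2708 CPM and 5049 and 3095 CPM. *Stmn1*, which destabilises microtubules, was at 103 and 125 CPM against 425 and 408 CPM in precursors. Of 30 genes of adhesion, matrix and guidance, *Tnr* and *Plxnb3* were higher than in precursors and *Cspg4* and *Cspg5* lower. Of 28 compared with newly formed cells, 5 were higher and 3 lower.

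Members also varied along the path from precursor to newly formed cell. They were ranked in each library by the log2 of the UMIs of the newly formed list over those of the precursor list and split into 3 ranges of 56, 56 and 55 and of 245, 245 and 244 cells. These are ranges of a score and not types, and the genes of the score are not read. Within 0.25 of a boundary lay 14, 22 and 11 cells and 55, 124 and 58 cells. Median depth was 3575, 4078 and 4012 UMIs and 2067, 2234 and 2540 UMIs.

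The levels of *Gpr17*, *Bmp4* and *Neu4* in the ranges are a description, since the rule summed them and a cell low in one had to hold more of the others. *Bmp4* was at 90.2, 472 and 1051 CPM in the untreated library and 266, 780 and 922 CPM in the other, from the precursor end to the newly formed end. *Neu4* was nearly level at 406, 429 and 493 CPM and 307, 347 and 319 CPM. *Gpr17* was at 1538, 2712 and 2408 CPM and at 2667, 2834 and 2406 CPM, lowest at the precursor end in 1 library and at the other end in the other. *Nkx2-2* was at 321, 507 and 425 CPM and 310.4, 349 and 307 CPM. Its intervals overlapped between all ranges, other than the first and the middle range of the untreated library.

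Other regulators had an order in common between the libraries. *Myrf* was at 35.1, 95.3 and 187 CPM and 59.2, 137 and 236 CPM, and *Mycl* at 260.5, 381 and 452 CPM and 209.9, 271 and 343 CPM. *Sox8* was highest at the precursor end, at 706, 646 and 402 CPM and 608, 580 and 483 CPM. *Fyn* was at 401, 1261 and 2517 CPM and 922, 1856 and 2546 CPM. *Ccnd1* was at 115, 52.0 and 13.7 CPM and 71.8, 30.5 and 25.6 CPM, and *Id2* at 391, 147 and 137 CPM and 267, 163 and 125 CPM.

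**Figure D4:**
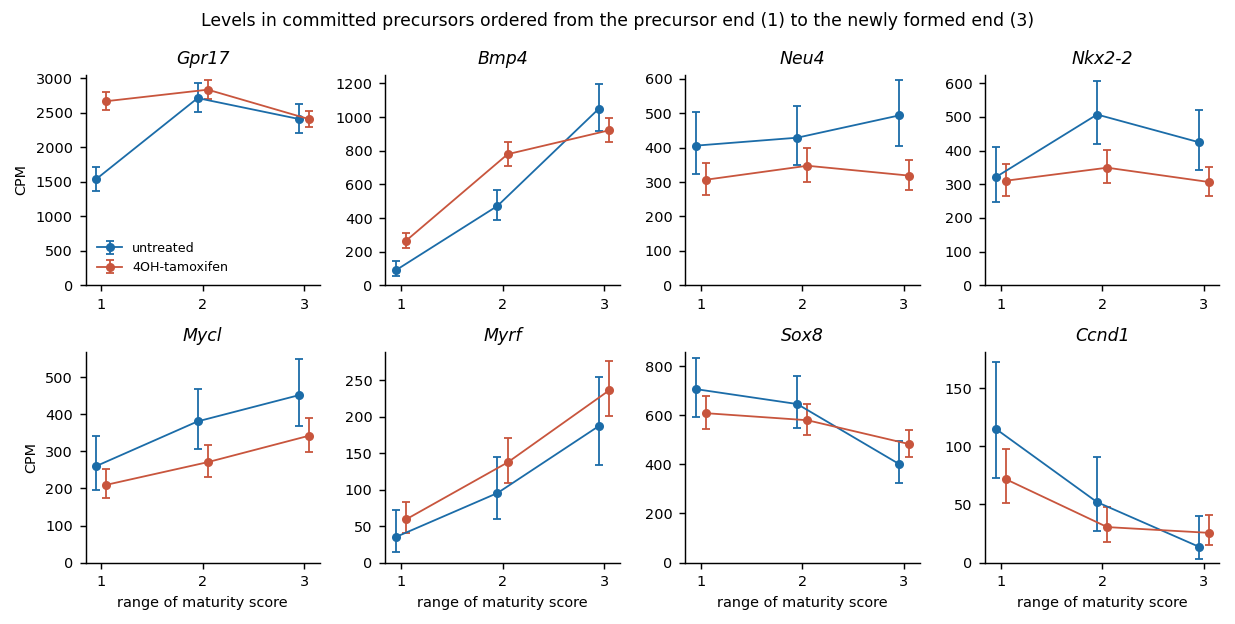
Levels (CPM) of 8 genes in 3 ranges of members, ordered from the precursor end (1) to the newly formed end (3). Points are UMIs summed over the cells of a range and bars are 95% exact Poisson intervals. *Myrf* was highest in range 3 and *Sox8* and *Ccnd1* in range 1 in both libraries. *Gpr17*, *Bmp4* and *Neu4* are genes of the rule, and their levels are a description only.

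Division transcripts were concentrated at the precursor end, at 471, 199 and 27.4 CPM and 391, 78.0 and 49.6 CPM, a ratio of last to first range of 0.0582 (0.0208 to 0.132) and 0.127 (0.0852 to 0.184). Notch genes had a ratio of 0.696 and 0.659 and BMP signal and target genes of 0.525 and 0.696. Cholesterol synthesis was higher at the newly formed end, by 1.45 (1.26 to 1.68) and 1.86 (1.69 to 2.04), and the cytoskeleton list by 1.65 and 1.32. The myelin list was higher there by 1.27 and 1.32, but *Mbp* made up 10856 of its 14433 CPM and 14081 of its 18764 CPM in the first range and had a ratio of 0.972 and 1.01. *Cnp* alone had a ratio of 3.59 and 2.92, and *Cldn11* of 3.91 and 3.09. Of 19 lists, 14 had intervals off 1 in the same direction in both libraries. The lineage transcription factors had intervals off 1 in opposite directions, 0.891 (0.831 to 0.954) and 1.046 (1.002 to 1.091), a difference that was not tested. Astrocyte markers moved with the score as well, at a ratio of 0.488 and 0.641, as did dissociation genes at 0.566 and 0.593. Neuron markers had a ratio of 0.427 in the untreated library. In the 4OH-tamoxifen library they were highest in the middle range, at 2193, 3585 and 1140 CPM, and their ratio of 0.520 became 1.29 when members were split into 2 ranges. The part of these lists in the other ratios was not tested.

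Markers of other cells were present throughout the members at low levels. Neither list had a gene called against precursors, of 8 astrocyte and 7 neuron genes compared. The astrocyte list summed to 2553 and 3420 CPM in members and 1805 and 3257 CPM in microglia, against 15179 and 16875 CPM in astrocytes. The neuron list summed to 1160 and 2259 CPM in members and 577 and 1333 CPM in microglia, against 15642 and 18504 CPM in neurons, with *Slc17a6* and *Slc32a1* at 0 by the rule. *Aqp4* UMIs were found in 41.9% and 37.1% of members and in 37.3% and 37.6% of microglia, so that a single UMI does not part the classes, but some members held many, up to 35 and 24. Microglia markers outside the rule summed to 116 and 115 CPM, against 19703 and 14257 CPM in microglia. Endothelial markers summed to 49.3 and 43.6 CPM and pericyte and fibroblast markers to 21.6 and 41.9 CPM. None of 5 glucocorticoid response genes, 4 nuclear noncoding genes and 11 dissociation genes was called against precursors, and *Egr1* was the 1 dissociation gene of 9 that was higher than in newly formed cells.

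Between the libraries, 40 of 7233 genes (0.553%) were past the fold with the untreated members higher and 51 (0.705%) with the 4OH-tamoxifen members higher. Immediate early genes led the first group. *Egr1* was at 236 CPM in the untreated members and 47.5 CPM in the others, 4.97-fold (3.79 to 6.54), and the ratio was 2.82 in precursors, 3.48 in newly formed cells and 2.22 in microglia. *Fos* was at 154.0 and 53.0 CPM and *Jun* at 325 and 125 CPM. The list of genes that respond to dissociation summed to 1722 and 863 CPM in members, 2562 and 1429 CPM in precursors and 7537 and 4208 CPM in microglia. In other classes the sums were closer, at 581 and 567 CPM in astrocytes, 950.0 and 842 CPM in myelinating cells and 1657 and 1414 CPM in neurons.

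*Impdh2*, an enzyme of guanine nucleotide synthesis, was past the fold in members, while its intervals in the neighbouring stages included 1. It was at 122 and 51.9 CPM, 2.35-fold (1.72 to 3.20), with a ratio of 1.04 (0.646 to 1.65) in precursors, 1.05 (0.774 to 1.40) in newly formed cells and 1.35 (1.05 to 1.73) in microglia. *Pcsk2*, a prohormone convertase, was also at 122 and 51.9 CPM, with a ratio of 1.68 (1.20 to 2.35) in precursors. In the other direction, *Polr3e*, a subunit of RNA polymerase III, was at 30.8 and 145 CPM, 4.71-fold (2.99 to 7.84) higher in 4OH-tamoxifen members, against 1.35-fold (0.605 to 3.30) in precursors and 2.26-fold (1.84 to 2.80) in newly formed cells. The neuronal genes *Nefm* (81.6 and 319 CPM), *Nefh* (60.1 and 207 CPM), *Stmn2* (57.0 and 188 CPM) and *Atp1b1* (53.9 and 167 CPM) were higher in the 4OH-tamoxifen library by 3.09 to 3.91-fold in members, 2.34 to 4.39-fold in precursors, 2.197 to 3.494-fold in newly formed cells and 1.99 to 2.92-fold in microglia. Whether any of these differences between classes exceeds the spread between libraries could not be tested with 1 library per condition.

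**Figure D5:**
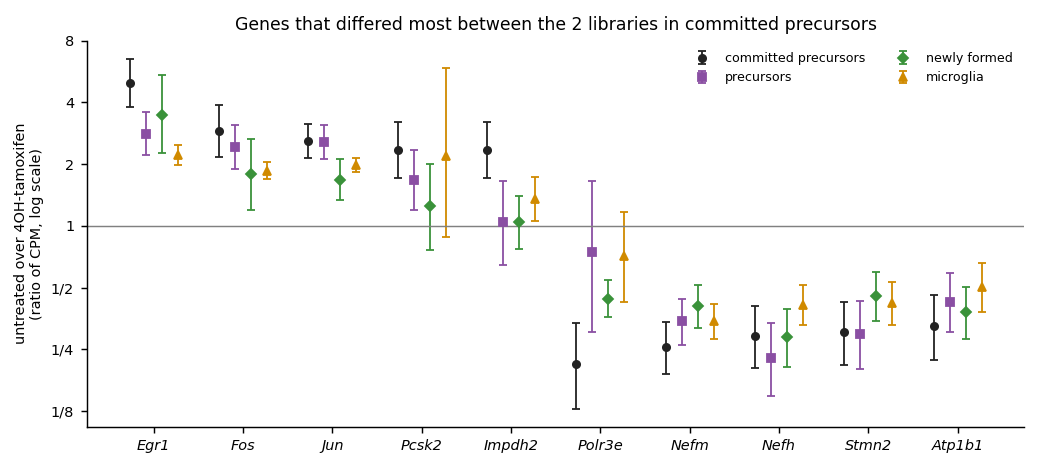
Ratio of levels between the untreated and the 4OH-tamoxifen library (log axis, 1 marked by a line) for the 10 genes that differed most in members, in 4 cell classes. Bars are 95% exact intervals for counting error. *Egr1*, *Fos*, *Jun* and the neurofilament genes lay on the same side of 1 in all 4 classes, while *Impdh2* stood at 2.35 in members and at 1.04 and 1.05 in the neighbouring stages.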

How the data were processed

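Libraries were sequenced and the authors deposited raw UMI counts per gene and barcode, made with bcl2fastq 2.18.0.12 and Cell Ranger 2.2.0 on an mm10 (GRCm38) reference according to the submitters' processing notes. Both count matrices were read with Python 3.11.15, numpy 2.4.6, scipy 1.17.1, pandas 2.3.3 and scanpy 1.11.5, and plotted with matplotlib 3.10.9. Barcodes with at least 800 genes, at most 50 hemoglobin UMIs and at most 20% mitochondrial UMIs were kept. No doublets were removed in the values reported, and Scrublet calls were an alternative. The 125 rows of the gene list whose symbol also stood on another row were left out of the genes compared. Cell classes came from UMI limits on marker genes. Levels are UMIs summed over the cells of a class in 1 library per 1000000 UMIs (CPM), so that deeper cells weigh more. Ratios carry exact conditional intervals at 95%. A gene was called when (CPM + 10)/(CPM + 10) was at least 2 in the same direction in both libraries, with at least 20 CPM in the higher class. Genes of the cell class rules, hemoglobin and mitochondrial genes were left out of these comparisons.

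With 1 library per condition there was no replicate check and no test. The genes named were those of the rule and of the gene lists, the 12 with the largest smallest ratio to both neighbouring stages at 50 CPM or more in members, the 8 with the largest smaller ratio over the libraries in each direction against each stage, and the 5 in each direction between libraries at 100 CPM or more. The members and lists were chosen with earlier results of these data known. Calculations were tested on simulated data. Promoter bases were RefSeq entries trimmed with GENCODE exons.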

Additional observations from a re-analysis of the deposited data

Results flagged for a closer look

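For 10 genes the 2 libraries gave opposite directions, each with a 95% counting interval on its own side of 1. These were found among 490 listed genes in each comparison of stages and 240 genes across the ranges of maturity, and the difference between the libraries itself was not tested. Chance can give some of them among so many genes.

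Against precursors this was 1 gene. *Gfap*, an intermediate filament gene of astrocytes, was higher in untreated members, at a ratio of 1.30, and lower in 4OH-tamoxifen members, at 0.718.

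Against newly formed oligodendrocytes there were 5, all lower in untreated members and higher in 4OH-tamoxifen members. The ratio was 0.824 and 1.22 for *Cd9*, a tetraspanin gene, 0.362 and 1.26 for *Epcam*, 0.626 and 1.22 for *Gp1bb*, 0.168 and 1.71 for *Rgs5*, a pericyte marker, and 0.799 and 1.11 for *Zeb2*. *Bmp4* is not among these. It was at 550 against 911 CPM in the untreated and 674 against 533 CPM in the 4OH-tamoxifen library, a description only since the rule used it.

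Between the last and the first range of maturity there were 4, all higher at the newly formed end in the untreated library and lower in the other. The ratio was 3.02 and 0.648 for *Amz1*, a peptidase gene, 2.01 and 0.745 for *G0s2*, an inhibitor of fat breakdown, 1.57 and 0.902 for *Gpr17*, a gene of the rule whose levels are a description only, and 1.83 and 0.919 for *Tmsb4x*.

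The list of lineage transcription factors likewise gave opposite directions between the last and the first range, at 0.891 and 1.05, and this difference was not tested.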

How the results depend on the processing

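The share of members followed the rule and the filters. In the untreated library, 4.99% as reported, it was 5.95% with at least 3 rule UMIs, 3.95% with 6, 1.94% with 0 UMIs of *Enpp6*, *Pdgfra* and *Mog* with *Opalin*, 5.96% with 1200 genes and 6.57% at 10% mitochondrial UMIs. In the 4OH-tamoxifen library, 8.11% as reported, it was 9.68%, 6.24%, 4.04% and 9.24% with 3 rule UMIs, 6 rule UMIs, 0 UMIs and 10% mitochondrial UMIs. Genes lower than in precursors numbered 313 with 1 CPM added and 111 at 50 CPM or more, against 192. Genes higher than in newly formed cells numbered 206 and 61 under the same settings and 236 with at least 4 *Enpp6* UMIs, against 102. Genes higher than in precursors numbered 98 to 184 and genes lower than in newly formed cells 123 to 223 over all alternatives. With 2 or more division UMIs the 4OH-tamoxifen share of dividing members was 2.997% against 1.63%. Of the summary values under alternatives, these 15 moved and 80 did not, where a count moved when it changed by over 1.5 times and a share or ratio when it left its 95% interval. Of the values of single genes, lists and shares, 152 moved, 409 did not and 2 turned. The ratio of the last to the first range turned for BMP inhibitors in the untreated library, from 0.494 to 1.36 with cells thinned to 2000 UMIs, and for neuron markers in the 4OH-tamoxifen library, from 0.520 to 1.29 with 2 ranges. The cause of these shifts was not tested.

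Chosen after seeing the data, leaving out members with 4 or more *Aqp4* and *Gja1* UMIs gave 127 genes higher and 230 lower than in precursors, of which 120 and 188 were among those reported, and members with the profile of the other library's members gave 122 and 255, with 99 and 180 shared. No paired analysis was possible because there was 1 library per condition, and for the same reason no library could be left out. Depth limited genes under 20 CPM.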
